A study of Mus musculus with 6 samples.

Results

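The comparison set 1 RNA-seq library of a TROY knockout of MLE12 cells against 1 library of the parental line, both collected 24 h after the cell layer had been scratched. MLE12 is an immortalized mouse lung epithelial cell line. The members are the genes of the count table: 46078 identifiers, of which 21961 had at least 1 count in either library and 12078 passed a filter of a mean of at least 1 CPM (reads of a gene per 1000000 scaled reads in genes) over the 6 libraries of the series. Below, these 12078 are called the tested genes, although no statistical test was possible. The parental cells carry the label wild-type, the knockout cells carry the label TROY KO, and no other allele or agent is named for either. The 4 remaining libraries were parental cells left unscratched and scratched Lingo1 KO, Lingo2 KO and Lingo3 KO cells, 1 library each. Whether a knockout line is 1 clone, and which exons were disrupted, is not given in the sources used here.

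TROY is the product of Tnfrsf19, a member of the tumour necrosis factor (TNF) receptor superfamily that signals through TRAF adaptors. In neurons it can stand in for the p75 neurotrophin receptor beside LINGO1 and the Nogo receptor, a complex that passes inhibitory signals from myelin to the RhoA GTPase. A scratch through a confluent layer is a common model of epithelial repair, in which cells at the edge spread and migrate into the gap.

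With 1 library per group there was no replicate, so no p-value is given. For each gene the ratio of scaled counts is printed with an exact Clopper-Pearson 95% interval, which covers counting error only and not the spread between cultures or lines. "Higher" and "lower" are used for genes that passed a rule of size: a ratio of at least 2, with the interval's bound nearest to 1 beyond 1.5. In bulk RNA, fewer cells of a type and less RNA per cell cannot be told apart.

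The libraries held 28109825 to 30776294 reads in genes, 29307338 in the scratched parental and 30597910 in the TROY library, so that 3 counts corresponded to about 0.0986 and 0.0997 CPM. The share of uniquely placed reads outside annotated genes was 8.02% in the scratched parental library, 7.80% in the unscratched one, 6.20% in the TROY library and 4.98% to 6.41% in the Lingo libraries. Some markers of lung epithelium were present in both libraries compared. Of 19 alveolar type II genes, 10 were tested and 4 had 0 counts in both libraries. The lung transcription factor Nkx2-1 stood at 160 CPM in the parental and 174 CPM in the TROY library, the lipid transporter Abca3 at 133 and 159 CPM, and the keratin Krt8 at 309 and 460 CPM. The club cell marker Scgb1a1 had 0 and 2 counts, the basal keratin Krt5 had 0 in both, and the leukocyte marker Ptprc had 0 and 3. The targeted gene could not check the label: Tnfrsf19 (ENSMUSG00000060548, chr14:60963875-61046490, minus strand, GRCm38) had 1 count in the parental library and 1 in the TROY library. Its level was 0.0329 CPM in the parental and 0.0332 CPM in the TROY library, and 0.144, 0.106 and 0.131 CPM in the Lingo1, Lingo2 and Lingo3 libraries. All of these are close to the level of 3 counts or below it. Transcript counts would in any case check a deletion only where it removes or destabilizes the RNA.

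The size rule was met by 270 of the 12078 genes (2.24%). Of these, 128 were higher (1.06%) and 142 lower (1.18%) in the TROY library. The rest of the transcriptome lay close together: the median log2 ratio over all tested genes was 0.02, and 95% of the genes lay between -0.80 and 0.82. The higher genes had ratios from 2.01 to 19.2 with a median of 2.63, and 18 of them were at least 4-fold higher. The lower genes had a median ratio of 2.70 and again 18 at 4-fold or more. Many were of low level: the median went from 3.06 to 7.94 CPM among the higher genes and from 4.93 to 1.78 CPM among the lower genes. The same rule called 10 genes (0.0828%) between the 2 parental libraries, scratched against unscratched. That count covers tested genes only, and the filter admits few genes found mainly in the scratched parental library. Of 99 genes in which that library stood apart from all others (described below), only 2 were tested. The count of 10 may therefore understate how far the parental libraries differ. Against the unscratched parental library the TROY library had 272 calls (2.25%), 150 higher (1.24%) and 122 lower (1.01%). Since both contrasts use the TROY library they are not independent, but 94 of the higher and 99 of the lower genes passed against each parental library.

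**Figure D1:**
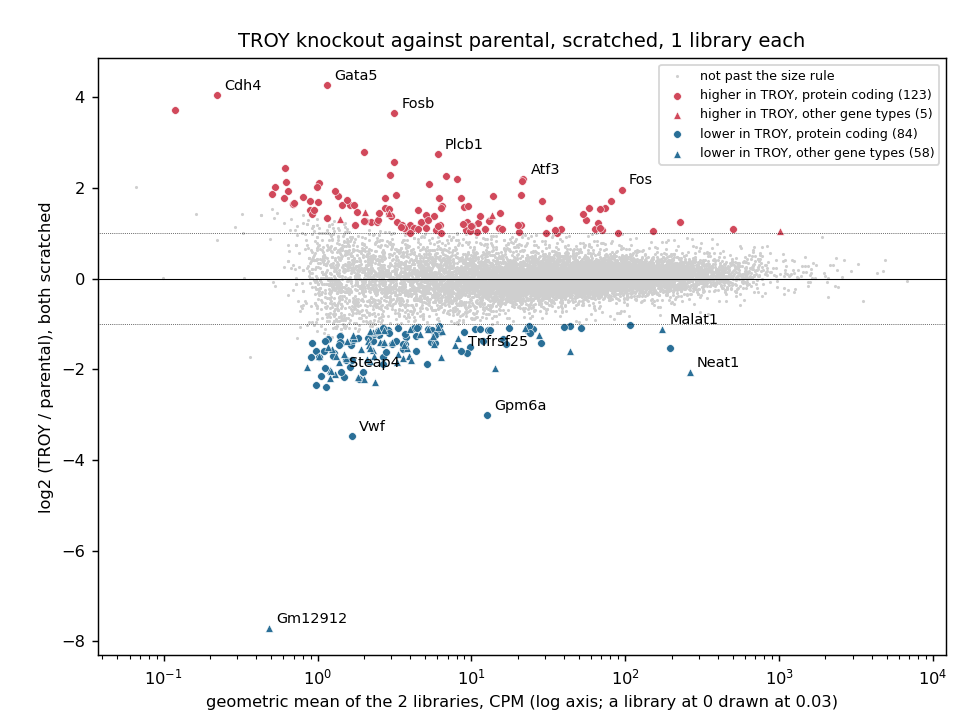
Each point is 1 of the 12078 tested genes, with the geometric mean of its level in the scratched parental and TROY libraries on the x axis (CPM, log axis) and the log2 ratio TROY / parental on the y axis. Red points (128) and blue points (142) passed the size rule, triangles are genes other than protein coding ones, and the dotted lines mark a 2-fold difference; the triangles lie mostly among the blue points (58, against 5 among the red).

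Immediate early genes stood out among the higher genes. These are the transcription factors and RNA regulators that cells switch on within minutes of growth factor or stress signals. Of 24 tested members, 6 were higher and none lower, against 1.06% of all tested genes. Their median log2 ratio was 0.64 against 0.02, and 23 of the 24 had a ratio above 1, against 53.5% of all tested genes. This list and those below were written with earlier results of these data known, so the counts are no independent test. Fosb, a Fos family subunit of the AP-1 transcription factor, stood at 0.888 CPM in the scratched parental library and 11.1 CPM in the TROY library, and at 1.19 CPM without the scratch. That is a ratio of 12.5 (8.47 to 19.3). Its partner in the family, Fos, went from 48.0 to 188 CPM (3.91, 3.69 to 4.14), with 42.4 CPM in the unscratched cells. Atf3, a stress-induced partner of AP-1, was at 10.2 and 46.5 CPM (4.57, 4.04 to 5.19), and the zinc finger factor Egr2 at 3.75 and 17.2 CPM (4.59, 3.74 to 5.68). For these 4 genes the TROY library lay at least 3.91-fold above either parental library, and the parental libraries lay close to each other. Zfp36, which destabilizes AU-rich messenger RNAs, was at 32.5 and 87.5 CPM (2.69, 2.5 to 2.90). Junb, a Jun family subunit of AP-1, was at 105 and 217 CPM (2.07, 1.98 to 2.16). Its ratio fell to 1.93 against the unscratched library and to 1.96 with total counts as the scaling, both short of the rule. The strongly expressed members that did not pass had smaller ratios: Egr1 1.85 (1.79 to 1.91, 201 and 371 CPM), Klf4 1.59 (445 and 707 CPM) and Jun 1.58 (74.4 and 118 CPM). Maff had the lowest log2 ratio of the list, -0.17.

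Genes that damp the ERK kinase pathway, many of them targets of the same pathway, were less uniform. Of 17 tested members 3 were higher and 1 lower, against 1.06% and 1.18% of all tested genes, with a median log2 ratio of 0.21. All 3 higher members were phosphatases of the dual-specificity family, which remove the activating phosphates from MAP kinases. Dusp4 was at 5.42 and 16.6 CPM (3.06, 2.56 to 3.67), Dusp5 at 8.42 and 20.7 CPM (2.46, 2.12 to 2.85), and Dusp1 at 43.8 and 102 CPM (2.33, 2.18 to 2.48). The ETS factor Etv1 was lower, at 1.51 and 0.565 CPM (2.68-fold, 1.51 to 4.98), a result of 46 and 17 counts that did not hold against the unscratched library. Among the growth factors that start this pathway from the cell surface, the EGF family had 1 call in 10 tested genes. Areg, the ligand amphiregulin, was at 1.45 and 3.42 CPM (2.37, 1.65 to 3.45). Ereg (epiregulin) had a ratio of 2.04 with a bound of 1.48, just short of the rule, and Hbegf one of 1.92 (31.2 and 60.1 CPM). Their receptor Egfr did not pass either, with 13.5 CPM in the parental and 7.88 CPM in the TROY library.

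**Figure D2:**
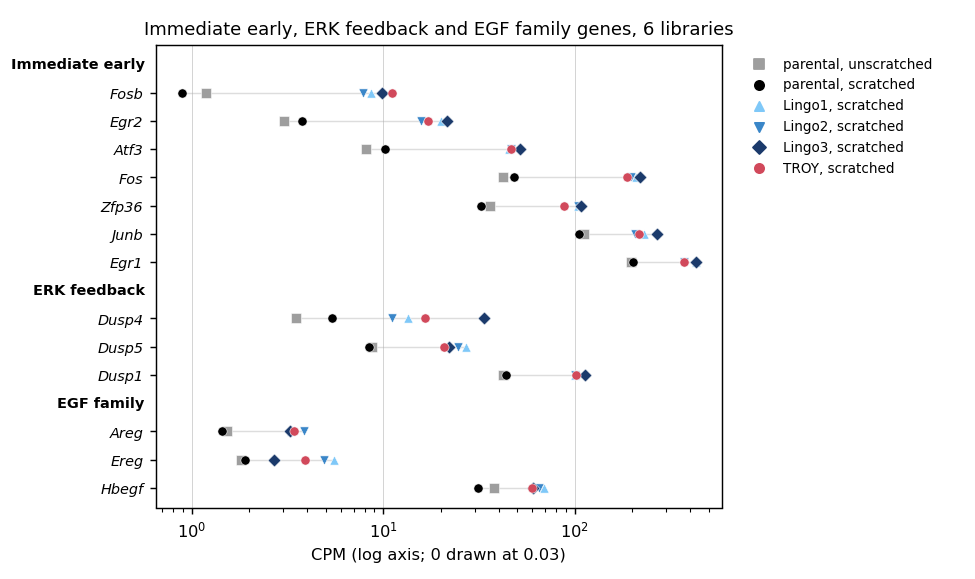
Levels (CPM, log axis) of immediate early, ERK feedback and EGF family genes in each of the 6 libraries, 1 symbol a library. For Fosb, Egr2, Atf3 and Fos the TROY symbol (red) lies within or beside the 3 Lingo symbols (blue) and more than 3-fold to the right of the black and grey parental symbols.

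The start regions of these genes were searched for elements known from the regulation of early genes in other settings: the CArG box, bound by serum response factor, and the element TGACGTCA, bound by CREB and ATF proteins. The 250 bases before each start were searched on both strands in the RefSeq promoter table (GRCm38.p6). Of the 9 higher genes of the immediate early and ERK lists, 8 had an entry, and a CArG box was found in 3 of them, Egr2, Dusp5 and Zfp36 (58 to 49 bases before its start). Atf3, Fos, Fosb and Junb held none of the elements searched in this window. It was found in 1 of the 25 list members with an entry that were tested and not higher, and in 1.62% of all 27025 genes in the table. TGACGTCA was found in 1 of the 8 (Dusp1), in 4 of the 25 and in 1.77% of all genes; outside these lists Areg held it too. The AP-1 element TGAGTCA, which occurs inside neither of these, was in none of the 8, none of the 25 and 5.16% of all genes. Among all 128 higher genes, 87 had an entry and 6 of them (6.90%) held a CArG box, against 1 of 82 lower genes (1.22%) and 1.37% of the tested genes with an entry. TGACGTCA was in 4 of the 87 (4.60%), 1 of the 82 (1.22%) and 3.19% of the tested genes. TGAGTCA was in 9 of the 87 (10.3%), 4 of the 82 (4.88%) and 4.0% of the tested genes. A match describes the letters only, and no binding was measured. The regions of Egr2 (chr10:67537316-67537515, plus strand, 1 of 5 starts in the table), Dusp5 (chr19:53528895-53529094, plus), Dusp1 (chr17:26508523-26508722, minus) and Areg (chr5:91139349-91139548, plus) are shown because they hold these elements beside a higher level in the TROY library. Each runs 5′ to 3′ from 250 to 51 bases before the start, with the matches in capitals, a CArG box in Egr2, 2 adjoining ones in Dusp5, and TGACGTCA in Dusp1 and Areg.
Egr2: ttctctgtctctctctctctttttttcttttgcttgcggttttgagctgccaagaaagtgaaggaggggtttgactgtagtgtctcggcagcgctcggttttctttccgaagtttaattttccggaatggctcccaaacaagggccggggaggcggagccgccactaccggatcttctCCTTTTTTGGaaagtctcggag
Dusp5: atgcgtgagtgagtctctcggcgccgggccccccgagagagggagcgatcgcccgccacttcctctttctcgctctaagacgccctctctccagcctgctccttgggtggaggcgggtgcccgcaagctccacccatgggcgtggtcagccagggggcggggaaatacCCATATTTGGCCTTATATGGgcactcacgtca
Dusp1: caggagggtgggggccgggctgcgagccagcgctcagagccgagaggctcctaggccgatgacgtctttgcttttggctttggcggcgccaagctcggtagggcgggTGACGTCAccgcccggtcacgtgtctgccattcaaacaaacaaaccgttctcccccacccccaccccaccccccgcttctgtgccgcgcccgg
Areg: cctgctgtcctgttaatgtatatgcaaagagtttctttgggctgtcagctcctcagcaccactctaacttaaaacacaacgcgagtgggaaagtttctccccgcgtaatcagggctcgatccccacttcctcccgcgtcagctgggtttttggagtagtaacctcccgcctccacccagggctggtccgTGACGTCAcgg

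Among the higher genes the largest ratio belonged to Gata5, a zinc finger factor of endoderm and heart development (ENSMUSG00000015627, chr2:180325133-180334699). Its 152 counts in the TROY library stood against 8 in the scratched parental one, 5.05 and 0.263 CPM, a ratio of 19.2 (9.51 to 45.3). The unscratched parental library stood at 0.244 CPM and the Lingo libraries at 5.63, 6.93 and 11.8 CPM. It was the only call among 17 tested lung and endoderm transcription factors, whose median log2 ratio was 0.11, and its relative Gata6 stood at 198 and 209 CPM. Cdh4 (R-cadherin, chr2:179442431-179899373), an adhesion molecule best known from retina and brain, had 0 counts in the scratched parental library, 1 in the unscratched one and 49 in the TROY library (1.63 CPM). It was at least 16.5-fold higher, set against a floor of 3 counts in the parental library. It was the only call among 7 tested cadherins outside the junction list. Further large ratios were those of Plcb1, a phospholipase C that couples receptors to calcium release, at 2.33 and 15.7 CPM (6.72, 5.23 to 8.75), and Atp6v0a4, a proton pump subunit, at 10.1 and 44.6 CPM (4.44, 3.92 to 5.04).

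Several genes of airway and basal epithelium were higher. Of 16 genes on that list 7 were tested, and of these 5 were higher and none lower, against 1.06% and 1.18% of all tested genes. All 7 had a ratio above 1, against 53.5% of all tested genes, and the median log2 ratio was 1.53. The filter averages 6 libraries of which 4 are knockouts, so genes low in the parental cells could be tested through their knockout levels. Krt14, a keratin of basal cells, was at 43.4 CPM in the parental and 127 CPM in the TROY library (2.93, 2.75 to 3.12). Trp63, the transcription factor that maintains basal cells, was at 0.855 and 2.83 CPM (3.31, 2.11 to 5.35), and the squamous keratin Krt13 at 2.14 and 5.12 CPM (2.40, 1.78 to 3.25). The gel-forming airway mucins were higher as well: Muc5b at 40.3 and 116 CPM (2.89, 2.71 to 3.09) and Muc5ac at 1.71 and 6.12 CPM (3.58, 2.62 to 4.97). Gkn2, a gastrokine of mucous epithelium, was at 1.28 and 7.58 CPM (5.91, 4.19 to 8.53). It was the only tested gene on a separate list of mucins, trefoil factors and gastrokines, which leaves out Muc5b and Muc5ac. All 6 of these genes were higher against the unscratched parental library too. The set was nevertheless incomplete, since 8 of the 16 airway and basal genes, Krt5 and Krt17 among them, had at most 3 counts in each of the 2 libraries. Some higher genes of epidermis belong to no list and were picked by their values, so their direction adds nothing to the count above. They were Sprr2a3, a cornified envelope protein, at 3.12 and 15 CPM (4.80, 3.84 to 6.05), Sprr1a at 10.8 and 22.9 CPM (2.13), and the desmosomal plaque protein Pkp1 at 3.71 and 11.3 CPM (3.03).

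Alveolar genes did not move as a group. Among the 10 tested of 19 genes of alveolar type II cells, Sftpb was higher and Cxcl15 lower, and the median log2 ratio was 0.12. Sftpb, a surfactant protein needed for breathing, was at 35.6 and 87.0 CPM (2.44, 2.28 to 2.63). Sftpc, the type II cell's other hydrophobic surfactant protein, was at 18.3 and 19.8 CPM (1.08, 0.964 to 1.22), while the Lingo libraries held 40.7, 42.0 and 81.9 CPM. Cxcl15, the lung chemokine lungkine, had 67 and 13 counts, 2.20 and 0.432 CPM (5.10-fold lower, 2.79 to 10.1). None of 14 tested type I cell genes passed (median 0.15, from -0.25 for Akap5 to 0.52 for Rtkn2), and none of 4 keratins of simple epithelium (median 0.38, from 0.07 for Krt7 to 0.65 for Krt80).

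The matrix genes moved in both directions. Col1a1, the main chain of type I collagen (chr11:94936224-94953042), was at 44.8 CPM in the scratched parental, 62.3 CPM in the unscratched and 146 CPM in the TROY library (3.27, 3.07 to 3.48). The short-chain collagen Col8a1 was at 48.4 and 101 CPM (2.10, 1.97 to 2.23), and 1.99 with total counts as the scaling. Col11a1, a chain of the minor fibrillar collagen XI, was lower, at 3.98 and 0.864 CPM (4.60-fold, 2.99 to 7.33). These 3 were the calls among 16 tested collagen chains, which had a median log2 ratio of 0.33. Among 19 matrix glycoproteins and proteoglycans, 4 were higher and 1 lower (median 0.37). Of all tested genes, 1.06% were higher and 1.18% lower. Bgn (biglycan) was at 0.756 and 5.29 CPM (6.99, 4.50 to 11.3), Spp1 (osteopontin) at 0.493 and 1.99 CPM (4.04, 2.27 to 7.67), Fbln2 (fibulin 2) at 3.12 and 8.24 CPM (2.64), and Ltbp1, which tethers latent TGF-beta, at 8.35 and 17.8 CPM (2.13). Tnc, the wound glycoprotein tenascin C, was lower at 58.0 and 27.7 CPM (2.09-fold, 1.93 to 2.28) and lay at 70.8 CPM without the scratch. Ltbp2 had the lowest ratio of that list at a log2 value of -1.72, but only 20 and 6 counts, and did not pass.

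Adhesion to the basement membrane showed 1 call each way, where 1.06% of all tested genes were higher and 1.18% lower. Lamb3, a chain of the laminin on which migrating epithelium moves, was at 8.35 and 20.1 CPM (2.40, 2.07 to 2.80). Lama3, which encodes another laminin chain, did not pass with a ratio of 1.98, and neither did the laminin receptor subunit Itga6 (1.84). Itga9, an integrin that binds tenascin and osteopontin, was lower at 3.71 and 1.66 CPM (2.24-fold, 1.59 to 3.18), and not past the rule against the unscratched library. Over the 19 tested integrins and laminins the median log2 ratio was 0.43. Proteases of the matrix had 2 calls in 18, both lower (median 0.10): Adam8 at 2.60 and 0.499 CPM (5.21-fold, 2.97 to 9.74) and Mmp2, gelatinase A, at 5.62 and 2.43 CPM (2.32-fold, 1.75 to 3.09). Of 15 mesenchymal transition genes Twist1 and Tnc were lower (median 0.14), Twist1 with 69 and 21 counts, 2.27 and 0.698 CPM (3.25-fold, 1.97 to 5.58). Rac3 was the only call among 25 actin and motility genes (median 0.27), lower at 3.12 and 0.898 CPM (3.48-fold, 2.25 to 5.55). No epithelial junction gene passed among 15 (median 0.15), Epcam having the highest ratio at 1.82 and Tjp3 the lowest log2 ratio at -0.38.

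**Figure D3:**
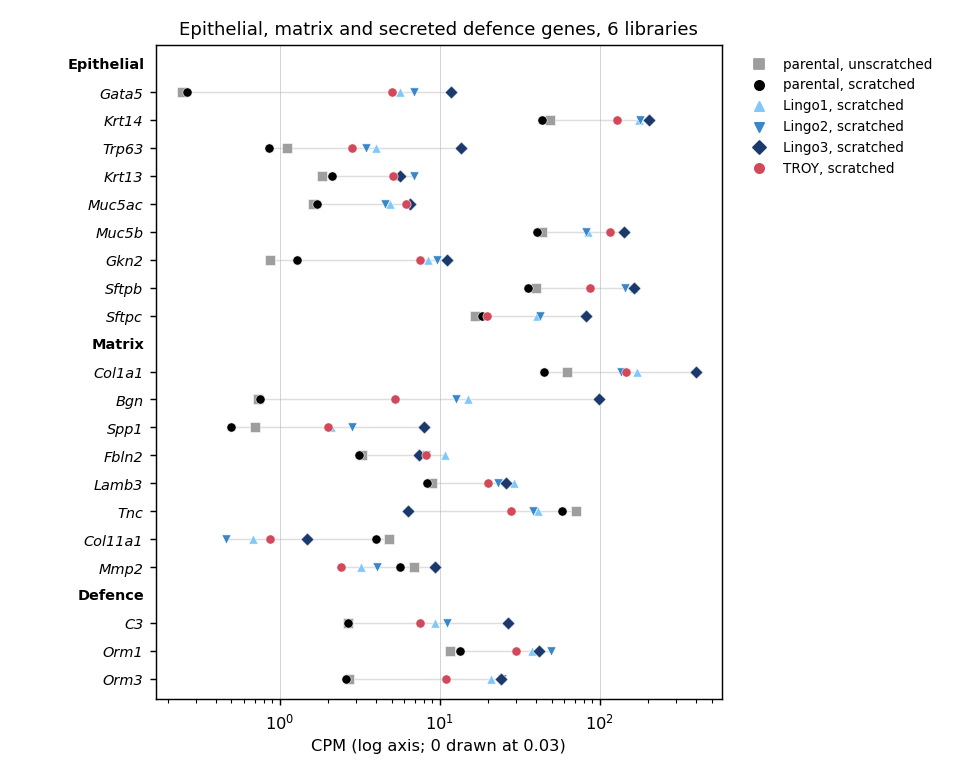
Levels (CPM, log axis, a library at 0 drawn at 0.03) of epithelial, matrix and secreted defence genes in each of the 6 libraries. Gata5, Krt14 and Bgn in the TROY library (red) lie to the right of both parental libraries (black, grey), Sftpc lies next to them, and Tnc, Col11a1 and Mmp2 lie to the left.

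In the receptor's own family 2 genes were lower. Of 28 tested TNF receptors and TRAF adaptors none was higher and 2 were lower, against 1.06% and 1.18% of all tested genes, with a median log2 ratio of 0.09. Tnfrsf25, death receptor 3 (chr4:152115934-152120119), was at 14.9 CPM in the scratched parental, 15.7 CPM in the unscratched and 4.89 CPM in the TROY library (3.04-fold lower, 2.52 to 3.69), and at 4.12, 3.96 and 2.30 CPM in the Lingo libraries. Tnfrsf4 (OX40) was at 2.30 and 0.831 CPM (2.77-fold lower, 1.73 to 4.56). Both TNF-alpha receptors and the lymphotoxin beta receptor did not pass: Tnfrsf1a at 403 and 416 CPM, Ltbr at 320 and 269 CPM, Tnfrsf1b at 234 and 255 CPM. Tnfrsf21 (death receptor 6) had a ratio of 1.69 (1.6 to 1.77) and the decoy receptor Tnfrsf22 one of 2.24 with a bound of 1.27, neither past the rule. The remaining receptors had ratios that did not pass either: log2 0.94 for Tnfrsf18, 0.80 for Tnfrsf23, 0.63 for Relt, 0.65 for Tnfrsf8, 0.55 for Eda2r, -0.07 for Tnfrsf9, -0.10 for Tnfrsf10b, -0.15 for Tnfrsf12a, -0.15 for Tnfrsf14, -0.16 for Fas and -0.18 for Tnfrsf11a. Among the adaptors, Traf2 stood at 42.7 and 36.7 CPM, Traf3 at 35.6 and 43.7 CPM, Traf6 at 39.2 and 41.8 CPM, while log2 ratios were 0.66 for Traf1, 0.21 for Traf4, -0.46 for Traf5 and 0.09 for Traf7. The death domain proteins Fadd, Tradd and Ripk1, which carry the signal onward, had log2 ratios of 0.24, -0.27 and 0.10. None of 5 TNF ligands (median 0.02, from -0.25 for Tnfsf13 to 0.84 for Tnfsf15) and none of 20 targets of NF-kappaB, the factor that TNF receptors commonly activate, passed; the NF-kappaB list had a median of 0.14, with Tnfaip2 highest at 0.97, Nfkbia lowest at -0.17 and Tnfaip3 at 14.7 and 16.6 CPM.

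The Nogo receptor list held no call in 10 tested genes (median 0.15). Lingo1, the co-receptor, was at 24.5 CPM in the scratched parental, 27.6 CPM in the unscratched and 34.7 CPM in the TROY library (1.42, 1.29 to 1.56), and at 51.3 to 57.0 CPM in the Lingo libraries, the Lingo1 KO library among them. Lingo2 and Lingo3 had 0 counts in both libraries compared, which at 3 counts allows up to 0.0986 CPM in the parental and 0.0997 CPM in the TROY library, and Lingo4 had 40 and 23 counts. The inhibitor Rtn4 (Nogo) was at 181 and 223 CPM, the receptor Rtn4r at 8 and 1 counts (ratio 7.91 in favour of the parental, 1.06 to 351), its homologue Rtn4rl1 at 25 and 19.9 CPM, and Ngfr (the p75 receptor) at 11 and 8 counts. Downstream, Rhoa was at 313 and 330 CPM, Rock1 at 108 and 120 CPM and Rock2 at 364 and 424 CPM. The remaining tested members had log2 ratios of 0.07 for Arhgdia, -0.03 for Arhgef1, 0.16 for Rtn4rl2 and 0.41 for Wnk1. Of 27 axon guidance genes none passed (median 0.13, from -0.45 for Slit2 to 0.85 for Robo2).

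Secreted defence proteins, with a median log2 ratio of 0.97, made up another list in which several members were higher. Of 11 tested genes 4 were higher, against 1.06% of all tested genes. They were the acute phase proteins Orm3 (2.60 and 11 CPM, 4.22, 3.30 to 5.47) and Orm1 (13.3 and 30.1 CPM, 2.26), the complement component C3 (2.66 and 7.58 CPM, 2.85, 2.20 to 3.71) and the chymase Mcpt1 (33.8 and 99.9 CPM, 2.95, 2.75 to 3.17). Interferon response genes had no call in 24 and a median of -0.03, between Ifit3 at -0.75 and Oas3 at 0.74. Genes of lipid synthesis lay on 1 side. All 28 cholesterol and fatty acid genes had a ratio above 1, against 53.5% of all tested genes, with a median log2 ratio of 0.59. Only Scd1, which desaturates stearate (347 and 736 CPM, 2.12, 2.07 to 2.17), and the elongase Elovl6 (46.9 and 101 CPM, 2.16, 2.02 to 2.30) passed. Scd2, the second desaturase, had a ratio of 1.90 and the cholesterol enzyme Hmgcs1 one of 1.87 (2.28 against the unscratched library). The cell cycle inhibitor Cdkn1a (p21), at 4.64 and 15.9 CPM (3.43, 2.84 to 4.17), was the only call among 18 targets of p53, whose median was 0.33. No gene of S phase passed (20 tested, median -0.07, from -0.29 for Gins2 to 0.44 for Rrm2), and none of mitosis (20 tested, median 0.22, from -0.29 for Cenpa to 0.51 for Tpx2).

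Several signalling lists held 1 or 2 calls, where 1.06% of all tested genes were higher and 1.18% lower. Mst1r, the RON kinase that drives epithelial scattering, was at 1.48 and 5.09 CPM (3.44, 2.45 to 4.91) among 21 receptor tyrosine kinases with a median of 0.31, where Met and Axl had ratios of 1.57 and 1.80. Pdgfrb also passed, on 1 and 13 counts, a ratio of 13.1 (1.97 to 559), but not against the unscratched library (4.13). Its levels of 0.0329 and 0.432 CPM were both under 1 CPM, so it passed the filter through other libraries, and a filter of 1 CPM in either of the 2 leaves it out. The Wnt antagonist Sfrp2 (1.35 and 6.58 CPM, 4.88, 3.47 to 7.01) and the R-spondin receptor Lgr4 (3.45 and 7.45 CPM, 2.16) were higher among 19 Wnt genes (median 0.24), the activin subunit Inhba (25.4 and 51.4 CPM, 2.02, and 1.91 with total counts as the scaling) among 19 TGF-beta and activin genes (median 0.09), and Igfbp5 (10.3 and 22.5 CPM, 2.19, but 1.5 against the unscratched library) among 9 genes of the insulin-like growth factor axis (median 0.39). The oxygen sensor Egln3 was higher among 24 glycolysis and hypoxia genes (2.37, median 0.25). In the unfolded protein and integrated stress response list of 23 (median 0.21) the lipoprotein receptor Vldlr was higher (2.01, and 1.85 against the unscratched library) and the amino acid transporter Slc7a3 lower (2.73-fold). Of the remaining genes with the largest bounds, Nmnat2, an enzyme that protects axons, was at 11.1 and 40.1 CPM (3.62). Susd2 (15.8 and 51.7 CPM, 3.28) and Edn1, endothelin 1 (14 and 31.9 CPM, 2.28), were named after their values were seen.

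Lists without any call were those of YAP and TAZ targets (20 tested, median 0.21, Axl highest at 0.84 and Gadd45b lowest at -0.26), Notch genes (10, 0.18, from -0.17 for Lfng to 1.04 for Nrarp), NRF2 targets (18, 0.19, from -0.29 for Hmox1 to 0.85 for Tkt), heat shock genes (12, 0.08, from -0.52 for Hspe1 to 0.31 for Bag3), mitochondrially encoded genes (7, 0.12, from -0.05 for mt-Co1 to 0.42 for mt-Nd1) and haematopoietic markers (3, -0.07, from -0.23 for Cd68 to 0.06 for Cd14), beside those already named. In all, 16 of 46 lists had none, with medians from -0.07 to 0.38. Over all lists 643 distinct members were tested, 42 higher and 18 lower, against 1.06% and 1.18% of all tested genes. The lists overlap in some genes and were not chosen independently of these data. Markers of other cell types gave the following calls. Fibroblast markers had 2 of 4 higher (Col1a1, and Pdgfrb on 1 and 13 counts, median 1.16), but Dcn had a ratio of 1.02. Col3a1 had 0 and 3 counts, Dpt 0 in both and Postn 16 and 0. The summed level of the list was 2580 CPM in the parental and 2745 CPM in the TROY library. Most of this sum was Dcn, a marker at a high level in both libraries. The muscle list had Tnnt2, the cardiac troponin T, higher (20.0 and 50.7 CPM, 2.54) and Tagln not (2.79 and 2.53 CPM). The list sum of 25.5 and 55 CPM was mostly Tnnt2. The neuronal list had 1 call in 4, Gpm6a (median 0.35), with Nefl, Snap25 and Stmn2 at 0 in both libraries. Their part in the results was not tested.

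**Figure D4:**
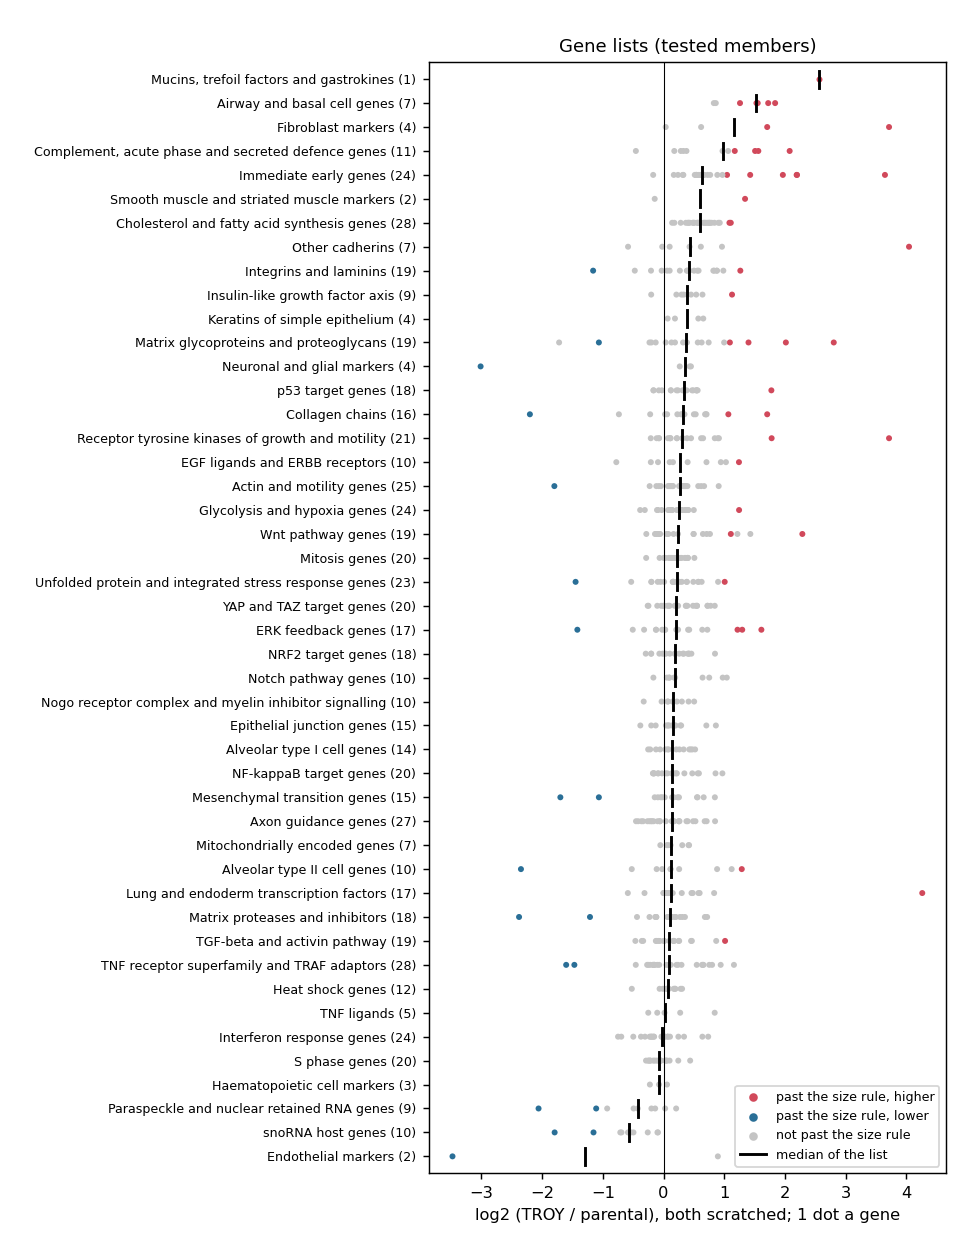
Log2 ratio TROY / parental of every tested member of the 46 gene lists, ordered by the list's median (black bar), with the number of tested members in brackets. Airway and basal genes, immediate early genes and the even shift of the 28 lipid synthesis genes stand to the right; nuclear retained RNAs and snoRNA host genes stand to the left with medians of -0.42 and -0.56, and the 2 tested endothelial markers have the lowest median, -1.29.

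Among the lower genes the largest protein-coding one that was low against both parental libraries was Gpm6a (ENSMUSG00000031517, chr8:54954843-55060871), a membrane glycoprotein of neurons that promotes filopodia. It stood at 36.0 CPM in the scratched and 36.8 CPM in the unscratched parental library and at 4.45 CPM in the TROY library, 8.08-fold lower (6.75 to 9.74), from 1095 and 134 counts. The Lingo libraries held 4.26, 2.41 and 2.30 CPM. Other protein-coding genes with large bounds were Mss51 (9.86 and 2.69 CPM, 3.66-fold), Tmod4, an actin-capping protein of muscle (5.13 and 1.40 CPM, 3.67-fold), the transporter Slc16a4 (3.12 and 0.698 CPM, 4.47-fold), the sulfurtransferase Tstd1 (4.04 and 0.964 CPM, 4.19-fold) and Ptgds, a prostaglandin D synthase (16.6 and 5.32 CPM, 3.12-fold). Highly expressed genes were few among the lower ones; 3 chosen after their values were seen are Rsrp1 (330 and 114 CPM, 2.89-fold, 2.78 to 3), the cyclin L gene Ccnl2 (152 and 75.3 CPM, 2.02-fold) and Fam193b (74.6 and 35.1 CPM, 2.13-fold).

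Non-coding RNA genes were over-represented among the lower genes by count. They made up 3.30% of the tested genes and 31% of the lower ones, 44 of 142, against 4 of the 128 higher ones. Put the other way, 11% of 399 tested non-coding RNA genes were lower, against 0.734% of 11451 protein-coding genes, and the medians of their log2 ratios were -0.21 and 0.03. The difference in share was present at both levels of expression: 12.4% against 4.21% among genes with a mean of 1 to 5 CPM, and 7.41% (8 of 108) against 0.286% (29 of 10144) at 5 CPM or more. Against the unscratched library 36 non-coding RNA genes were lower and 7 higher. The one with the highest read level was Neat1 (ENSMUSG00000092274, chr19:5824708-5845478), the scaffold of nuclear paraspeckles, at 537 CPM in the scratched parental, 480 CPM in the unscratched and 129 CPM in the TROY library, 4.17-fold lower (4.02 to 4.32). Its neighbour Malat1 (chr19:5795690-5802672), a nuclear RNA of splicing speckles, was at 254, 210 and 118 CPM, 2.16-fold lower (2.07 to 2.25) than the scratched and 1.78-fold lower than the unscratched parental library, the second short of the rule. Paraspeckle proteins did not pass: Nono had a ratio of 1.15, the highest of the 9 tested genes of that list, in which Neat1 and Malat1 were the calls and the median was -0.42.

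Host genes of small nucleolar RNAs were all on the low side, 10 of 10 tested with a ratio below 1 and a median log2 ratio of -0.56, and 2 of them passed. Of all tested genes 46.5% had a ratio below 1 and 1.18% were lower. Of tested non-coding RNA genes 67.7% had a ratio below 1 and 11% were lower. Snhg20 was at 7.5 and 2.16 CPM (3.47-fold lower, 2.62 to 4.64) and Snhg15 at 3.55 and 1.6 CPM (2.23-fold, 1.57 to 3.20; 1.73-fold against the unscratched library). Further lower non-coding genes, chosen after their values were seen, were Dleu2 (42.1 and 17.9 CPM, 2.35-fold), the miR-17 cluster host Mir17hg (3.71 and 1.30 CPM, 2.87-fold) and Firre (8.74 and 3.62 CPM, 2.41-fold). In the opposite direction, the mitochondrial ribosomal RNA mt-Rnr2 was at 701 and 1451 CPM (2.07, 2.04 to 2.11) and mt-Rnr1 at 568 and 769 CPM (1.35), while the 7 tested mitochondrial messenger genes did not pass. The 2 parental libraries, in which these nuclear RNAs were more abundant, also had the largest shares of reads outside genes (7.80% and 8.02%, against 4.98% to 6.41% in the 4 knockout libraries), and the part of RNA quality or nuclear RNA content in these differences was not tested.

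**Figure D5:**
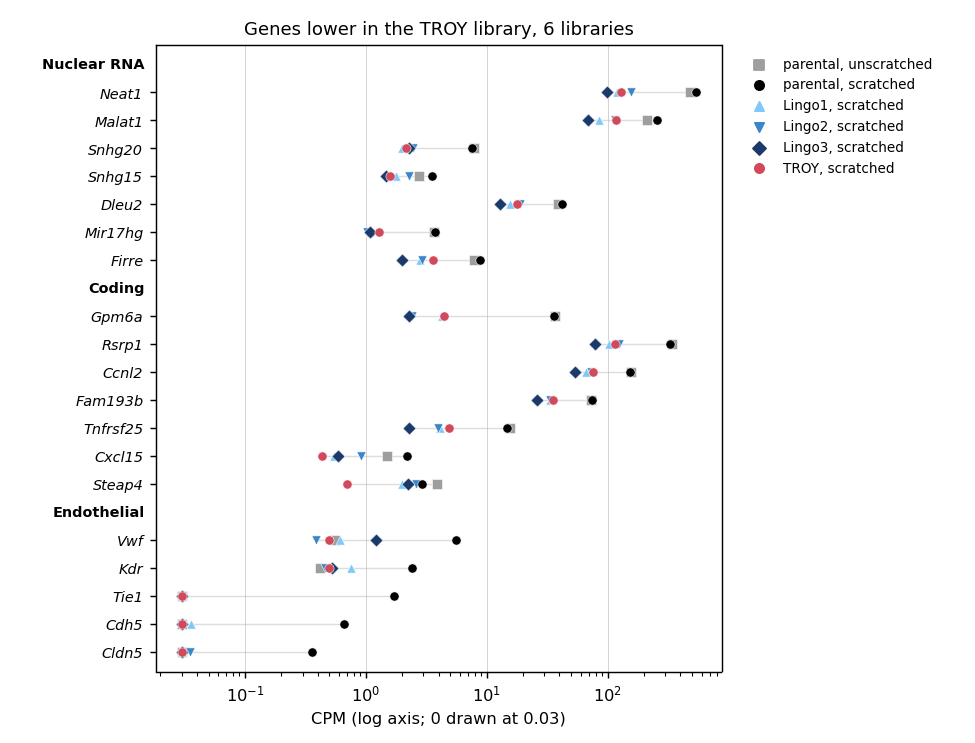
Levels (CPM, log axis, 0 drawn at 0.03) of genes lower in the TROY library in each of the 6 libraries, with endothelial markers at the bottom. Nuclear RNAs and Gpm6a are high in both parental libraries (black, grey) and low in all 4 knockout libraries, whereas for Vwf, Kdr, Tie1, Cdh5 and Cldn5 the scratched parental library (black) alone stands to the right.

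A second kind of lower gene rested on the scratched parental library. Vwf, von Willebrand factor of endothelium (chr6:125546774-125686679), was at 5.56 CPM in that library, 0.558 CPM in the unscratched one and 0.499 CPM in the TROY library. It was 11.1-fold lower (6.57 to 20.4) than the scratched parental library, and the ratio of the unscratched library to TROY was 1.12, short of the rule. Of 10 endothelial markers only Vwf and Tek were tested (median log2 ratio -1.29), and Tek lay between 86.5 and 186 CPM in all 6 libraries. Without the filter on low levels 5 of the 10 met the rule, none of which met it against the unscratched library: Vwf, Kdr (74 and 15 counts), Tie1 (52 and 0), Cdh5 (20 and 0) and Cldn5 (11 and 0). Leaving out Tek, the list summed to 11.3 CPM in the scratched parental library, 1.29 CPM in the unscratched, 1.13 CPM in the TROY library and 1.31 to 2.36 CPM in the Lingo libraries; 6 of the 10 markers had 0 counts in the TROY library and 1 in the scratched parental library. Among all genes of the table, 99 had at least 10 counts in the scratched parental library and at least 4 times the level of every other library, 70 of them pseudogenes, with 2432 counts in all there and 72 in the TROY library. Only 2 of the 99 were among the tested genes, Vwf and the processed pseudogene Gm12912 (211 counts against 1, a ratio of 209 with an interval of 37 to 8281). The other 140 of the 142 lower genes lay outside this set, but the filter admits few genes found mainly in 1 library. Of the 142 lower genes, 99 also passed against the unscratched library. In 4 of the 142 the scratched parental library was past the rule above the unscratched one. Pseudogenes as a class were lower in 12 of 190 tested, 6.32% against 1.18% of all tested genes. Of the 12, 4 passed against the unscratched library as well. Gm13456 was the single lower gene with a TROY level above the unscratched one (9.44 CPM in the scratched parental, 2.90 in the unscratched and 3.49 in the TROY library). The filter itself also bears on the higher and lower genes, since it averages 6 libraries of which 4 are knockouts. Genes found mainly in the parental cells passed it less readily, and genes found mainly in the knockout cells more readily. A filter of 1 CPM in either of the 2 libraries compared gave 130 higher and 207 lower genes.

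Set beside the other knockout libraries, the TROY library seldom differed by the rule from Lingo1 or Lingo2 in the genes that passed. It differed from Lingo3 in more of them. Every such comparison with the parental line uses the same parental library, so a shared position relative to it is no independent result. The counts of genes that differed directly between TROY and each Lingo library are without a parental library. The positions and direct calls within the 128 higher and 142 lower genes are not, since those genes were selected against the scratched parental library. The TROY library differed by the rule from the Lingo1 library in 26 genes (0.215%, 2 higher, 0.0166%, and 24 lower, 0.199%), from the Lingo2 library in 44 (0.364%, 13 higher, 0.108%, and 31 lower, 0.257%) and from the Lingo3 library in 315 (2.61%, 58 higher, 0.48%, and 257 lower, 2.13%). For the 128 higher genes the TROY level was below all 3 Lingo libraries in 57, between them in 55 and above all 3 in 16. For the 142 lower genes it was above all 3 in 50, between them in 61 and below all 3 in 31. By the rule, the TROY library lay above Lingo1 in 1 of the 128 higher genes and below it in 3. For Lingo2 these counts were 2 and 3, and for Lingo3 3 and 29. Among the 142 lower genes they were 0 and 6 for Lingo1, 0 and 9 for Lingo2, and 10 and 10 for Lingo3. Matrix genes show the spacing to Lingo3: Bgn was at 5.29 CPM in the TROY library and 14.9, 12.6 and 98.3 CPM in the Lingo1, Lingo2 and Lingo3 libraries, and Col1a1 at 146 against 170, 136 and 398 CPM. Fosb, at 11.1 against 8.59, 7.89 and 9.91 CPM, was among those above all 3. One tested gene (0.00828%) was past the rule in the TROY library against each of the other 5 libraries, and in that gene TROY was the low one. Steap4, a metalloreductase of the cell surface, had 21 counts (0.698 CPM) in the TROY library, against 2.93 CPM in the scratched parental, 3.91 CPM in the unscratched parental and 1.99, 2.62 and 2.23 CPM in the Lingo libraries; it was 4.19-fold lower (2.58 to 7.10) than the scratched parental library and 2.84-fold lower than the nearest of the others. No tested gene stood above all 5 others.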

How the data were processed

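RNA of 6 MLE12 cultures was prepared as poly(A) libraries with an Illumina TruSeq mRNA kit, per the labels' protocols. The deposited count table holds whole read counts per Ensembl gene; the authors' tools were Trimmomatic 0.39, STAR, HTSeq and edgeR with the mouse genome GRCm38, per the submitters' processing notes. The strand setting of the counting is not given in the sources used here, so overlapping and antisense genes are uncertain. The authors' deposited table of RPKM levels and log2 ratios was used as a check only. Matching the authors' deposited table by symbol gave 11819 genes, and its log2 ratio of TROY to parental lay within 0.1 of the one computed here in 100% of them, and all 258 matched genes past the size rule had the same sign.

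Counts were scaled by TMM (edgeR 4.0.16, R 4.3.3) over the 6 libraries; intervals came from scipy 1.17.1. HTSeq summary lines were left out, and 45229 of 46078 identifiers were named from GENCODE M21. A gene with 0 counts in 1 library was set at a floor of 3 counts, and no fold is given where both libraries had 3 or fewer counts and one had 0. Levels are counts per 1000000 reads in genes after that scaling and are not adjusted for gene length, so they compare libraries and not genes. The code was tested on simulated data. Alternatives were 3 other scalings, 3 other filters, 2 other size rules, 2 other controls and subsets of genes.

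The comparison, the gene lists and the questions were chosen with earlier results of these data known. Genes named are the 15 per direction with the largest bound of the interval (models without a gene name and pseudogenes left out), list members past the rule (at most 6 a list, or the extremes where none passed), all tested TNF receptor and Nogo list members, genes apart from the 5 other libraries, and those said to be chosen after their values were seen; list members given as not past the rule were also chosen then. Some genes that this rule would name are not reported here.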

Additional observations from a re-analysis of the deposited data

Results flagged for a closer look

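In 2 genes the TROY and Lingo3 libraries passed the size rule in opposite directions against the same scratched parental library; with 1 library a group the difference between the lines was not tested. Dapk1, a death-associated kinase, had a TROY to parental ratio of 0.331 (0.179 to 0.581) and a Lingo3 to parental ratio of 8.23. Its level was 1.71 CPM in the scratched parental, 0.565 CPM in the TROY library, 1.88 CPM in Lingo1, 1.70 CPM in Lingo2 and 14.1 CPM in Lingo3, and the direct ratio of Lingo3 to TROY was 24.9 (15.4 to 43.1). Itga9 had a TROY to parental ratio of 0.447 (0.314 to 0.629) and a Lingo3 to parental ratio of 3.97. It stood at 3.71 CPM in the scratched parental, 1.66 CPM in TROY, 3.83 CPM in Lingo1, 3.36 CPM in Lingo2 and 14.8 CPM in Lingo3, a direct ratio of 8.88 (6.62 to 12.1). In both genes the TROY library was the lowest of the 6 and the Lingo3 library the highest. Neither passed in TROY against the unscratched parental library, where the rule asks for a ratio of 2 with a bound beyond 1.5.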

How the results depend on the processing

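Counts of genes past the size rule depended on the filter and on the rule. Against 270 genes (128 higher, 142 lower), no filter on low levels gave 562 with 404 lower, and a mean of at least 5 CPM gave 118 (79 higher, 39 lower). A fold of 1.5 with a looser bound gave 854 (449 and 405), and a fold of 3 with a bound beyond 2 gave 76 (33 and 43). Among protein-coding genes alone 123 were higher and 84 lower, so the side with more genes depended on the genes admitted, and with the unscratched library as control it turned as well (150 and 122). Other scalings kept the counts within 1.5 times: total counts gave 106 higher and 172 lower, and the all-gene median moved to -0.06. Of 167 named genes, 5 lost the rule with total counts (Col8a1, Inhba, Junb, Vldlr, mt-Rnr2) and none with DESeq2 size factors or with TMM over 2 libraries. With the unscratched control 10 lost it, 3 gained it, and Gm13456 turned, to a TROY to unscratched ratio of 1.20. All 46 list medians stayed within 0.1 under the 3 other scalings, but a scaling shifts every log2 ratio by the same amount. That result therefore does not bear on any single list. No paired analysis was possible because each group has 1 library, and for the same reason none could be left out. Depth limits the low genes: 3 counts are about 0.1 CPM, so Tnfrsf19, Lingo2 and Lingo3 could not be compared.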
